A study of Mus musculus with 2 samples.

Results

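The genes of endothelin signalling and of the mandibular program that it is known to control were described in the facial prominence of the mouse embryo, the tissue that builds the face. The set held 10 genes, chosen by symbol: the ligands Edn1, Edn2 and Edn3, the receptors Ednra and Ednrb, the converting enzymes Ece1 and Ece2, and the transcription factors Mef2c, Hand1 and Hand2. They were 10 of 42462 genes with a symbol, of which 21474 were protein coding. Total RNA was sequenced from 2 pools of B6NCrl embryos at embryonic day 10.5, with both sexes mixed: 69 embryos made up replicate 1 and 51 made up replicate 2. Both pools belonged to 1 group, with no treatment, mutant allele or second tissue. The labels name the prominence as a whole, so mandibular, maxillary and nasal tissue cannot be told apart. In such bulk tissue, fewer cells of a type and less RNA per cell cannot be told apart either.

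Endothelins are short secreted peptides, cut from longer precursors first by furin-like proteases and then by endothelin converting enzymes. In the mouse, Edn1 from the ectoderm, mesodermal core and endoderm of the first arch acts through Ednra on the neural crest mesenchyme, where signalling through the Gq class of G proteins and Mef2c keeps Dlx5, Dlx6 and Hand2 on. Mouse embryos without Edn1 or Ednra form upper-jaw-like structures in place of the lower jaw. Edn3 and Ednrb are known instead for the neural crest lineages of pigment cells and enteric neurons, and Ednrb is also made by endothelial cells.

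The coding sequences of the 3 mature peptides are shown because the ligands of this family differed widely in level while their coding bases were alike. Each runs 5′ to 3′ on the plus strand within exon 2, and capitals mark the 4 cysteine codons, whose cysteines form the disulfide bridges of the peptide. They were read from GENCODE M21 on GRCm38, at chr13:42303649-42303711 for Edn1, chr4:120161951-120162013 for Edn2 and chr2:174761749-174761811 for Edn3.
Edn1-201: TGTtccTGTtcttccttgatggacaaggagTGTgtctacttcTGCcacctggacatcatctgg
Edn2-201: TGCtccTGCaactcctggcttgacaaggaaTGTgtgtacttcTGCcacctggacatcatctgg
Edn3-201: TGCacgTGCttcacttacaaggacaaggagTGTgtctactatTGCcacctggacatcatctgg
Each stretch holds 63 bases, or 21 codons. Edn1 and Edn2 shared 53 of the 63 bases and 14 codons. Edn1 and Edn3 shared 50 bases and 13 codons, and Edn2 and Edn3 shared 48 bases and 13 codons. From the last cysteine codon on, the bases were the same in all 3 genes, and each codon that took a different form in every gene lay between the second and the third cysteine codon.

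The expected counts assigned to genes came to 40059176 for replicate 1 and 39531700 for replicate 2, and spike-in RNA took 3.46% and 3.94% of all counts. The counts of the pools differed beyond sampling noise (chi-square of 8.93 per degree of freedom over 17567 genes), so they were not 1 library deposited under 2 labels. Levels are in TPM, a share of transcripts that divides counts by transcript length and so allows levels of different genes to be set side by side. Means are given with the SD over n = 2 pools, and all count-based limits cover counting error only. All 10 markers of facial mesenchyme, 1 of the tissues of the facial prominence, were detected at a median of 50.9 TPM, led by Msx1 at 281.28 and 302.63 TPM in replicates 1 and 2, Prrx1 at 108.03 and 106.50 TPM, and Sox9 at 94.77 and 90.27 TPM.

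A gene was called detected at 1 TPM or more in both pools. Of the 10 genes, 9 were detected, against 58.2% of all protein coding genes. The exception was Edn2. The median of the 10 genes was 17.9 TPM, beside a median of 20.1 TPM over detected protein coding genes and 3.56 TPM over all protein coding genes. This median takes the Ece2 row as deposited, at a mean of 41.4 TPM. By GENCODE M21, 38.3 TPM of that row belonged to another gene, Eef1akmt4, and 2.905 TPM to Ece2. With the latter value the median of the 10 genes would be lower.

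**Figure D1:**
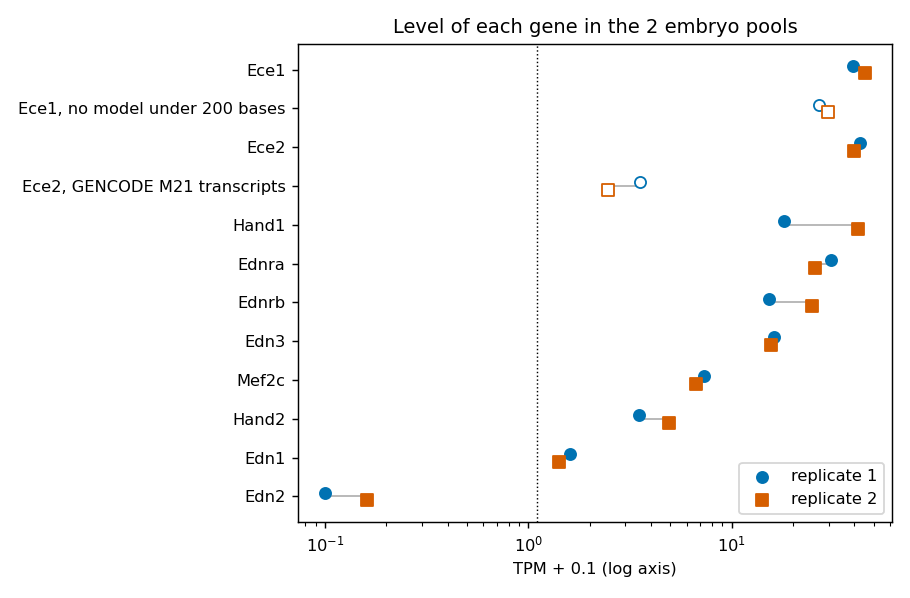
TPM plus 0.1 on a log axis for each of the 10 genes in replicate 1 (circles) and replicate 2 (squares), ordered by mean level, with the detection limit of 1 TPM as a dotted line. Open symbols give Ece1 without its 172-base transcript model (26.85 and 29.86 TPM) and Ece2 from the transcripts that GENCODE M21 assigns to it (3.44 and 2.37 TPM), and only Edn2 lies left of the limit in both pools.

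Among the ligands, Edn3 was the most abundant, Edn1 was near the detection limit and Edn2 was almost absent from the reads. Edn3 (ENSMUSG00000027524, chr2:174760619-174784042, plus strand) had 15.98 TPM in replicate 1 and 15.53 TPM in replicate 2, from 1024 and 945 counts. Edn1 (ENSMUSG00000021367, chr13:42301476-42307990, plus strand), the ligand of jaw patterning, had 1.5 and 1.32 TPM, from 89 and 78 counts. The pools lay close together for both ligands and the ranges of the ligands did not overlap. Edn1 stood at 1.41 ± 0.127 TPM, above 2.25% of the detected protein coding genes, and Edn3 at 15.75 ± 0.318 TPM, above 43.6% of them.

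To compare genes, the difference of log2(TPM + 0.1) was averaged over the pools with a 95% interval, and 2 genes were called apart when the interval left out 0 and both pools had the same sign. With 2 values per gene, the smallest two-sided p that exact permutation allows is 0.33. The interval therefore took the spread of each gene as the larger of its own and that of the 200 genes nearest in level. It treated the 2 genes of a pair as independent, although both were measured in the same pools. It also made no allowance for a spread taken from only 2 values, so the 95% level is nominal. Edn1 lay below Edn3 by this measure, with a log2 difference of -3.39 (95% interval -4.03 to -2.76), or 0.0951 times the Edn3 level. The single annotated Edn1 transcript had no other gene in the files over it. Its antisense neighbour Gm47118 in GENCODE M21 was not analysed here.

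Edn2 (ENSMUSG00000028635, chr4:120161206-120167360, plus strand), known in the mouse also as the vasoactive intestinal contractor, received 0 counts in replicate 1 and 2 counts in replicate 2. A count of 0 allows a level of up to 0.083 TPM in replicate 1, and 3 counts would have been 0.084 TPM in replicate 2. Per base of effective transcript length and over both pools, Edn1 had 50.7 times the reads of Edn2 (exact 95% interval 13.8 to 422, 167 against 2 counts). Edn3 had 568 times the reads of Edn2 (157 to 4690, 1969 against 2 counts). These intervals rest on the 2 reads of Edn2.

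Edn3 reads fell on more than 1 transcript. The full coding transcript Edn3-201 held 64.83% and 60.61% of the TPM of the gene in replicates 1 and 2. Edn3-202, annotated as a retained intron, held 24.14% and 23.35%, and the shorter coding model Edn3-203 held 11.03% and 16.04%. The order of the 3 transcripts was the same in both pools. At the level of transcripts, Edn3-201 alone had 10.36 and 9.41 TPM, above both values of the whole Edn1 gene.

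The converting enzymes headed the set by deposited gene level. Both values depended on which transcript models were counted under the gene. Ece1 (ENSMUSG00000057530, chr4:137862237-137965229, plus strand), a membrane metalloprotease required in the mouse for active Edn1, had 39.25 TPM in replicate 1 and 45.45 TPM in replicate 2, from 3143 and 3570 counts. The main coding transcript Ece1-201 held 62.81% and 62.18% of this. Another 31.60% and 34.31% came from Ece1-203, a model of 172 bases with 24 and 30 counts. These were 0.764% and 0.84% of the counts of the gene. Ece1-203 is shorter than the 200 nt above which RNA was taken for the libraries, and its effective length was 73 bases, so that 1 read weighed far more in TPM than on Ece1-201. Without it, Ece1 stood at 26.85 and 29.86 TPM (28.36 ± 2.13).

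The Ece2 row of the files (ENSMUSG00000022842) had 42.69 TPM in replicate 1 and 40.11 TPM in replicate 2, from 1296 and 1185 counts, but most of it belonged to a neighbouring gene in GENCODE M21. The files place 11 transcripts under this ID. By M21, 2 of them are Eef1akmt4, a lysine methyltransferase gene that starts upstream on the same strand, 6 are Ece2 itself (chr16:20629828-20646485), 2 are the read-through gene Gm49333 and 1 is not listed. The transcript Eef1akmt4-201 (chr16:20611593-20619011) alone had 38.30 and 37.62 TPM, 89.71% and 93.81% of the whole. The 2 Eef1akmt4 transcripts together held 38.85 and 37.75 TPM, with 82.3% and 86.7% of the counts. The 6 Ece2 transcripts held 3.44 TPM in replicate 1 and 2.37 TPM in replicate 2 (2.905 ± 0.757), from 193.9 and 158.0 counts. No Ece2 transcript of M21 reached 5% of the level of the row in either pool.

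The bases before a RefSeq start of Eef1akmt4 and of Ece2 are shown because the deposited Ece2 value joins transcripts of both genes. They run 5′ to 3′ on the plus strand and come from RefSeq on GRCm38.p6, chr16:20611351-20611600 for Eef1akmt4 and chr16:20629601-20629850 for Ece2, with CG pairs in capitals.
Eef1akmt4: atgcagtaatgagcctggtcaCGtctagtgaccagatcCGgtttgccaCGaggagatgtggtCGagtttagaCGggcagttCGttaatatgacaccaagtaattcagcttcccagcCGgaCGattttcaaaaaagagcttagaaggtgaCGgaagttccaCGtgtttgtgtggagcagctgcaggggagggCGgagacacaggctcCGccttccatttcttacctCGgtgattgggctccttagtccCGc
Ece2: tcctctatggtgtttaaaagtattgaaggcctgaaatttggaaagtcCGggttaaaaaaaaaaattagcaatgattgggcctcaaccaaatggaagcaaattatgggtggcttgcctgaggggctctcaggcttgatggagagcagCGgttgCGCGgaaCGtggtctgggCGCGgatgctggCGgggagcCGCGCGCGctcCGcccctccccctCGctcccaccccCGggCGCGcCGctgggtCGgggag
Some M21 transcripts start elsewhere. Eef1akmt4-201 starts at 20611593 and Ece2-201 at 20629828, inside these stretches. Ece2-205 starts at 20631145 and Ece2-203 at 20632870, past the Ece2 stretch. The Eef1akmt4 stretch of 250 bases held 14 CG pairs at 52.8% G and C. At least as many pairs were found in 29.4% of all 32851 RefSeq promoters of that length. The Ece2 stretch held 19 CG pairs at 59.2% G and C, a number reached by 19.7% of them, while the median promoter held 6. CG was the only motif searched. It reads the same on both strands, and its count describes these letters only.

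By deposited levels Ece1 and Ece2 were not told apart, with a log2 difference of 0.03 (95% interval -0.22 to 0.28). Without the 172-base model, Ece1 was called lower than the Ece2 row (-0.55, -0.75 to -0.34). With the M21 transcripts of Ece2, Ece1 was 14.3-fold above it (log2 3.84, interval 3.24 to 4.44). This choice of transcripts, like the removal of the 172-base model of Ece1, was made after the data were seen. Ecel1, an endothelin converting enzyme-like protease of neurons, had 1.01 TPM in replicate 1 and 2.56 TPM in replicate 2, and Ece1 was 24.6-fold above it (10.3 to 58.7).

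Other genes that could process or degrade the peptides formed a list of 11, of which 6 were detected, at a median of 1.79 TPM. The highest were Pcsk7, a proprotein convertase, at 13.20 and 14.13 TPM in replicates 1 and 2, Mme, the neprilysin that degrades peptides, at 13.40 and 11.76 TPM, and Pcsk5, another convertase, at 9.11 and 6.96 TPM. Furin itself, which cuts the endothelin precursors, had 5.35 and 5.05 TPM. Kel, a protease of the neprilysin family, had 4.89 and 5.19 TPM. Pcsk6, Pcsk2, Pcsk1, Mmel1 and Phex were not detected, the lowest being Mmel1 at 0.29 and 0.34 TPM and Phex at 0.20 and 0.18 TPM. The pools were less than 2-fold apart for each of the 8 list genes with enough counts to be compared.

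Both receptors were present at levels well above that of Edn1. Ednra (ENSMUSG00000031616, chr8:77663031-77724464, minus strand), the receptor of the jaw mesenchyme, had 30.71 TPM in replicate 1 and 25.71 TPM in replicate 2, from 2844 and 2364 counts. Ednrb (ENSMUSG00000022122, chr14:103814625-103844402, minus strand) had 15.14 and 24.90 TPM, from 1536 and 2497 counts. Ednra was higher than Ednrb in replicate 1, and in replicate 2 the receptors were nearly level. The log2 difference of Ednra over Ednrb was 1.02 in replicate 1 and 0.05 in replicate 2, with a mean of 0.53 (95% interval -0.21 to 1.27), so the receptors were not called apart. An alternative that used the pooled spread alone did call them apart (0.30 to 0.77), as did replicate 1 alone (0.68 to 1.35).

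Against the ligands, Ednra was 18.7-fold above Edn1 (11.9 to 29.4) and 1.78-fold above Edn3 (1.42 to 2.23). Ednrb was 12.9-fold above Edn1 (6.83 to 24.6). Ednrb and Edn3 were not told apart, with a log2 difference of 0.30 (-0.43 to 1.03), although in replicate 2 alone Ednrb was called higher (0.30 to 1.06). These are ratios of RNA levels over the whole tissue. Ednra lay below Ece1 at 0.666 times its level (0.532 to 0.834), but without the 172-base Ece1 model the log2 difference was -0.01 (-0.30 to 0.28) and the call was lost.

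The transcripts of the receptors behaved differently. Ednra-201, the full coding transcript, held 93.36% of Ednra TPM in replicate 1 and 92.23% in replicate 2, and the rest fell on Ednra-202, a retained intron. Ednrb-201 held 56.29% and 76.00% of Ednrb TPM, and Ednrb-202 held 43.71% and 24%. In TPM, Ednrb-201 had 8.52 in replicate 1 and 18.92 in replicate 2, 2.22-fold higher in replicate 2, whereas Ednrb-202 had 6.62 and 5.97. The difference between the pools in Ednrb thus lay in Ednrb-201 by this estimate. In M21 both have the same coding exons and differ at the 5′ end, and the Ednrb-201 model of the files, of 3878 bases, differs from the M21 model of 4107 bases. No test of the difference in shares is available with 1 group of 2 pools.

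**Figure D2:**
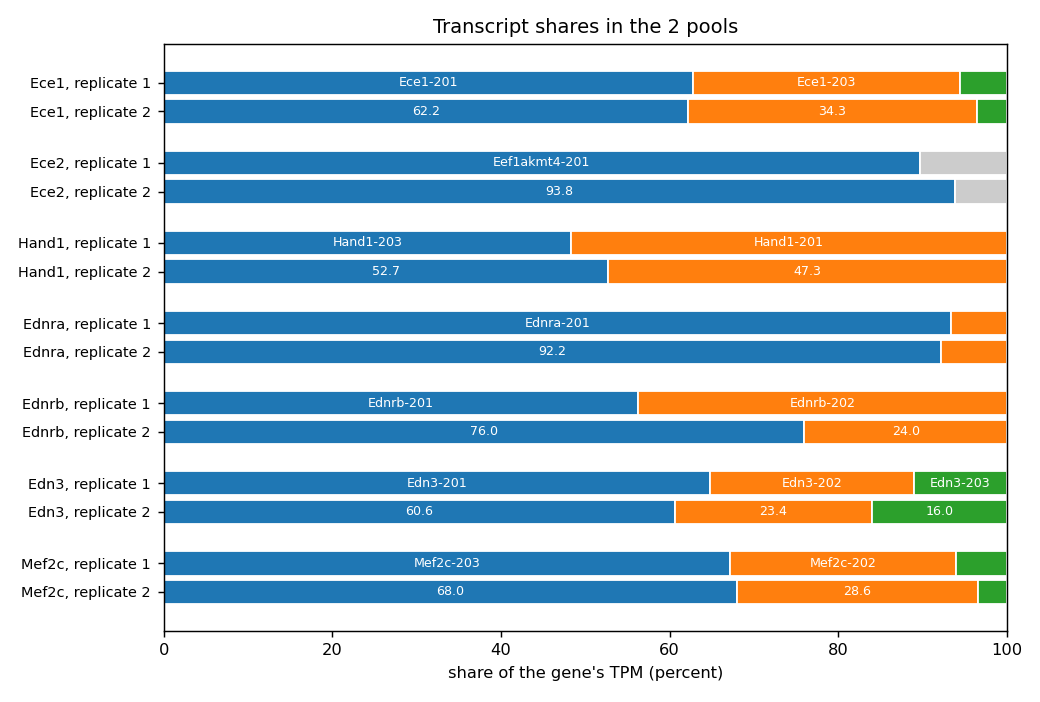
Share of the TPM of each gene held by its transcripts in percent, one bar per pool, for the 7 genes with at least 2 annotated transcripts. Names stand on the replicate 1 bars and shares on the replicate 2 bars, the unlabelled ends are Ece1-204, Ednra-202, Mef2c-201 and, in grey, the sum of all other transcripts under Ece2. Ednrb-201 takes 56.29% in replicate 1 and 76.00% in replicate 2, and only Hand1 has a different leading transcript in the 2 pools.

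Downstream of the receptors, 8 of 10 genes for G proteins and phospholipase C beta were detected, at a median of 11.5 TPM, and none of the 8 with enough counts differed 2-fold between the pools. Gna11 led at 66.92 and 67.16 TPM in replicates 1 and 2, followed by Plcb3 at 28.87 and 25.45 TPM and Gnaq at 17.09 and 17.92 TPM. Gnaq and Gna11 encode the alpha subunits that act together in this pathway in the mouse jaw, and Gnaq stood at 0.262 times the Gna11 level (0.224 to 0.307). Plcb4, whose human variants cause auriculocondylar syndrome, had 13.53 and 10.93 TPM and stood at 0.451 times the Plcb3 level (0.353 to 0.575). The undetected genes were Gna14, at 0.90 and 0.64 TPM, and Plcb2, at 0.36 and 0.34 TPM.

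Mef2c (ENSMUSG00000005583, chr13:83504034-83667080, plus strand), the MADS-box factor that acts after endothelin signalling in the crest, had 7.18 TPM in replicate 1 and 6.58 TPM in replicate 2, from 826 and 749 counts. The pools were alike, and the mean of 6.88 ± 0.424 TPM lay above 25.1% of detected protein coding genes. Mef2c was not the most abundant MEF2 gene. It stood at 0.402 times Mef2a (0.309 to 0.524) and 0.712 times Mef2d (0.53 to 0.957), and 10.3-fold above Mef2b (3.15 to 33.4), which was not detected at 0.59 and 0.57 TPM. Mef2a had 17.53 and 16.95 TPM and Mef2d 10.16 and 9.25 TPM. In either library alone the interval of Mef2c against Mef2d took in 0, at log2 differences of -0.50 in replicate 1 and -0.49 in replicate 2.

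Of the 7 other MEF2 genes and class IIa histone deacetylases, which bind MEF2 proteins and repress their targets, 6 were detected at a median of 17.2 TPM. Hdac5 had 44.99 and 41.76 TPM in replicates 1 and 2, Hdac7 had 25.30 and 22.34 TPM, Hdac4 had 17.53 and 18.08 TPM, and Hdac9 had 1.45 and 1.76 TPM. None of the 6 with enough counts was 2-fold apart between the pools. Among the Mef2c transcripts of the files, Mef2c-203 held 67.16% and 67.98% of the TPM, Mef2c-202 held 26.80% and 28.62%, and Mef2c-201 held 6.05% and 3.40%. Their lengths in the files differ from those in M21, so no exon content was assigned to them.

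Hand1 and Hand2, basic helix-loop-helix factors that pattern the ventral arch, were both more abundant in replicate 2. Hand1 (ENSMUSG00000037335, chr11:57828705-57832818, minus strand) had 18.05 TPM in replicate 1 and 41.81 TPM in replicate 2, from 841 and 1932 counts. Hand2 (ENSMUSG00000038193, chr8:57320983-57324633, plus strand), the target through which Edn1 acts on the distal jaw, had 3.40 and 4.80 TPM, from 192.3 and 270.4 counts. Hand1 exceeded Hand2 in both pools, 6.66-fold on average (2.75 to 16.1), with log2 differences of 2.37 in replicate 1 and 3.10 in replicate 2. Mef2c was 1.68-fold above Hand2 (1.13 to 2.50), a call lost in replicate 2 alone (log2 0.45, -0.26 to 1.16), and 0.253 times Hand1 (0.108 to 0.591), or 0.401 times in replicate 1 alone and 0.159 times in replicate 2 alone.

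Hand1 reads were split between transcripts that share their coding exons in M21. Hand1-203 had 8.72 TPM in replicate 1 and 22.02 TPM in replicate 2, and Hand1-201 had 9.33 and 19.79 TPM. Both were higher in replicate 2, 2.53-fold and 2.12-fold. The transcript with the larger share was Hand1-201 in replicate 1, at 51.68%, and Hand1-203 in replicate 2, at 52.66%. Of the 7 genes with at least 2 transcripts, 6 kept their leading transcript in both pools. The share was 91% over all genes with at least 2 transcripts and a mean of 1 TPM or more. In the Ece2 row, 1 of the 6, the leading transcript was Eef1akmt4-201.

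Hand2 has an antisense neighbour, Hand2os1, whose transcript lies opposite to it. Hand2os1 had 33.82 TPM in replicate 1 and 45.85 TPM in replicate 2, from 476 and 630 counts, above Hand2 and higher in the same pool. The sources used here do not say if counting was stranded, and reads of these genes may therefore be mixed. Overlaps of Ednra and Ece1 were small by comparison: 4933431K23Rik, opposite to Ednra, had 20 and 40 counts and Gm13012, opposite to Ece1, had 10 and 10.

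All 12 genes of a list of known endothelin-dependent mandibular targets were detected, at a median of 19.6 TPM, and none was 2-fold apart between the pools. Their summed level was 558.3 TPM in replicate 1 and 556.0 TPM in replicate 2, of which Msx1 alone held 281.28 and 302.63 TPM. Msx1, a homeobox gene of arch mesenchyme, led, followed by Dlx5, a homeobox gene of the ventral arch, at 77.51 and 62.76 TPM, and Tbx3, a T-box gene, at 43.10 and 46.68 TPM. The lowest were Dlx4 at 3.64 and 3.04 TPM and Nkx3-2, a gene of the jaw joint, at 1.58 and 1.83 TPM.

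Dlx5 was 16.9-fold above Hand2 (11.4 to 24.9). It was 2.53-fold above Hand1 (1.09 to 5.90), 4.28-fold in replicate 1 alone and 1.5-fold in replicate 2 alone. In replicate 2 Dlx5 was lower and Hand1 higher than in replicate 1. The interval takes no account of such opposite shifts, so the call of Dlx5 over Hand1 is not firm. Dlx6, which in the mouse acts with Dlx5 to turn Hand2 on, had 4.97 and 4.08 TPM and was not told apart from Hand2, with a log2 difference of 0.15 (-0.44 to 0.74). The largest pool difference of the list was that of Gsc, a homeobox gene of the jaw, at 17.27 TPM in replicate 1 and 9.84 TPM in replicate 2 (log2 ratio 0.78). It ran against the direction of Hand1 and Hand2. Msx2, at 34.94 and 48.15 TPM, was higher in replicate 2 as they were.

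Genes of the dorsal, maxillary part of the arch, where endothelin signalling is low, were all detected too, 6 of 6 at a median of 26.2 TPM. Nr2f2 had 56.88 and 50.98 TPM in replicates 1 and 2, and Nr2f1 had 44.21 and 47.16 TPM. The lowest were Six2 at 13.17 and 8.45 TPM and Pou3f3 at 6.34 and 5.68 TPM. The E proteins and TWIST factors that dimerise with HAND proteins were detected 5 of 5, at a median of 102 TPM. Tcf3 had 191.13 and 197.26 TPM, Tcf12 had 141.77 and 132.63 TPM and Tcf4 had 111.05 and 92.53 TPM. Even the lowest, Twist2 at 46.71 and 44.93 TPM and Twist1 at 30.27 and 24.44 TPM, exceeded Hand2 in both pools. None of the dorsal genes or partners was 2-fold apart between the pools.

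Ordered by mean level, the 10 genes ran Ece1, Ece2, Hand1, Ednra, Ednrb, Edn3, Mef2c, Hand2, Edn1 and Edn2. The first 6 formed a chain in which no gene was called apart from the next: Ece2 over Hand1 had a log2 difference of 0.59 (-0.60 to 1.78) and Hand1 over Ednra -0.03 (-1.24 to 1.18). Single pools did call these apart: in replicate 1 alone Ece2 was above Hand1 (0.91 to 1.56) and Hand1 below Ednra (-1.11 to -0.42), and in replicate 2 alone Hand1 was above Ednra (0.36 to 1.04). Below them each gene was called apart from the next, Mef2c and Hand2 not in replicate 2 alone. Edn3 was 2.27-fold above Mef2c (1.75 to 2.95) and Hand2 2.75-fold above Edn1 (1.61 to 4.68). Of 9 neighbouring pairs, 4 were called apart and 5 were not, and of all 26 pairs compared, 20 were apart. With the M21 transcripts alone, Ece2 would stand between Hand2 and Edn1 instead of near the top, and Ece2 over Hand1 would be -3.22 (-4.53 to -1.91).

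**Figure D3:**
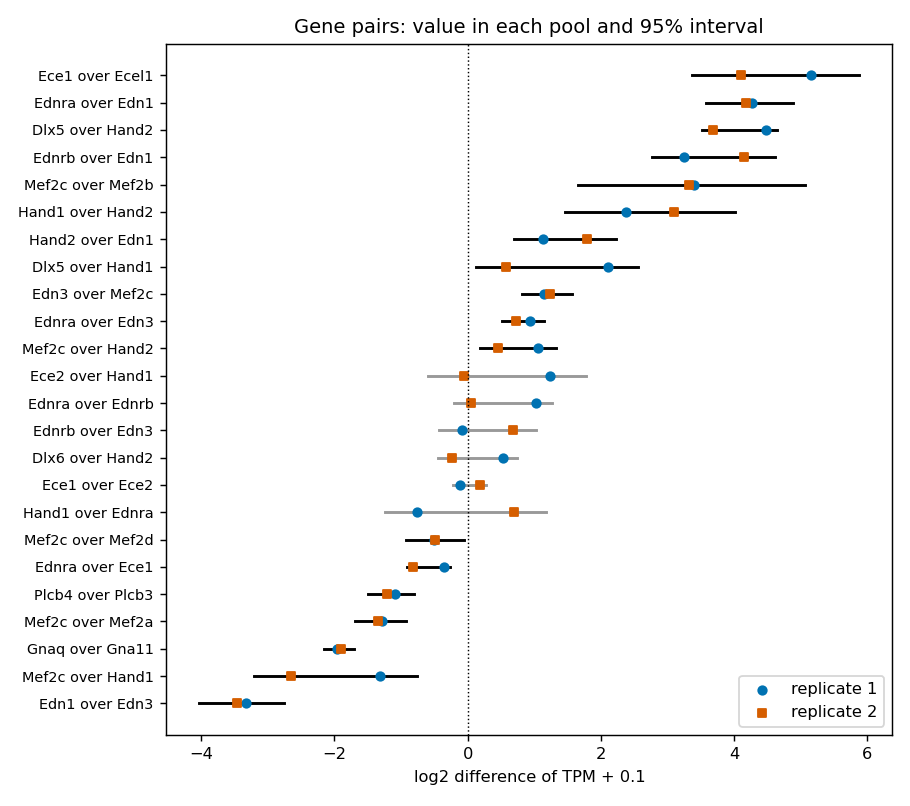
Log2 difference of TPM plus 0.1 for 24 of the gene pairs, first gene over second, in replicate 1 (circles) and replicate 2 (squares), with the 95% interval of the mean as a bar; pairs with Edn2 are left out. Black bars mark pairs called apart and grey bars the 6 that were not, among them Ednra over Ednrb (-0.21 to 1.27).

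With 1 group, the pools can be compared only as libraries. The ratio of replicate 1 over replicate 2 was taken after TMM scaling, which sets most genes to be equal, wherever the mean count was 50 or more. Of the 10 genes, 9 could be compared and 1, Hand1, was at least 2-fold apart, against 1.24% of all 14035 genes compared. None of the 9 was 2-fold higher in replicate 1, against 0.684% of all genes, and Hand1 was higher in replicate 2, against 0.556%. In an exact binomial test (two-sided) of each gene's reads, adjusted by Benjamini-Hochberg over all 14035 genes, 5 of the 9 differed between the libraries, against 30.2% of all genes. That test compares reads of 2 libraries and says nothing of a condition. The median size of the log2 ratio was 0.22 over the 9 genes and 0.09 over all genes compared.

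Hand1 was 2.35-fold higher in replicate 2 (log2 ratio -1.23, exact binomial test, adjusted p = 6.2e-101). Ednrb was 1.67-fold higher in replicate 2 (log2 ratio -0.74, adjusted p = 5.3e-55 by the exact binomial test) and Hand2 1.44-fold higher (-0.52, adjusted p = 0.00087 by the exact test). Ece1 was 1.16-fold higher in replicate 2 (-0.22, exact adjusted p = 1.1e-08). Ednra was the only one of the 5 that was higher in replicate 1, by 1.17-fold (0.23, exact adjusted p = 1.6e-07). The deposited TPM intervals of the authors, whose level is not stated, did not overlap between the pools for Hand1 (16.7 to 19.3 in replicate 1, 39.3 to 43.1 in replicate 2), Ednrb (14.1 to 15.6, 23.4 to 25.3), Hand2 (2.84 to 3.81, 4.11 to 5.28) and Ednra (28.9 to 31.2, 24.2 to 26.2). Those of Ece1 did overlap, at 34.2 to 44.3 and 39.8 to 51.2. The share of all genes whose deposited intervals do not overlap was not counted, so non-overlap cannot be called unusual for these genes.

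The remaining genes were close between the pools. The log2 ratio was 0.15 for Edn1, 0.08 for Edn3, 0.09 for the Ece2 row and 0.11 for Mef2c, and the exact binomial test gave adjusted p values of 0.70, 0.39, 0.23 and 0.30. Here, as in the counts of genes above, Ece2 stands for its deposited row. By M21, 82.3% of its counts in replicate 1 and 86.7% in replicate 2 were of Eef1akmt4. The Ece2 transcripts alone had 3.44 and 2.37 TPM, from 193.9 and 158.0 counts. Scaling by spike-in counts in place of TMM moved every log2 ratio by 0.214. It left Hand1 2-fold apart at -1.02 and brought Ece1 to -0.01.

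**Figure D4:**
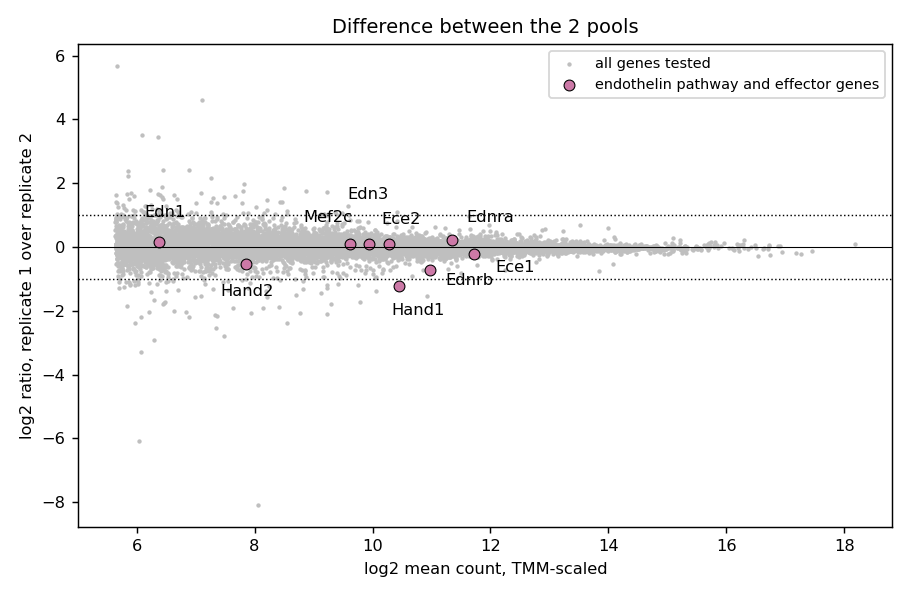
Log2 ratio of replicate 1 over replicate 2 against the log2 mean TMM-scaled count for the 14035 genes compared (grey), with 9 of the 10 genes in colour and dotted lines at 2-fold. Hand1 lies below the lower line at -1.23, Ednrb at -0.74 and Hand2 at -0.52 lie between it and 0, and the other 6 are close to 0.

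Markers of other tissues that express these genes were set beside the pool differences. Hand1 and Hand2 are also genes of the embryonic heart. Of 10 heart markers, 2 were detected, Myl7 and Tnni3, with Tnni3 at 2.36 and 2.99 TPM. The list had a median of 0.922 TPM, and its summed level was 10.92 TPM in replicate 1 and 34.34 TPM in replicate 2. Of the 5 with enough counts, 4 were at least 2-fold higher in replicate 2, again beside 0.556% of all genes: Myl7, an atrial myosin light chain, at 4.53 and 20.02 TPM, Myh7 at 0.75 and 3.94 TPM, Tnnt2 at 0.93 and 3.69 TPM, and Myh6 at 0.16 and 0.66 TPM. The heart factors Nkx2-5, at 0.64 and 0.40 TPM, and Gata4, at 0.36 and 0.38 TPM, were below detection in both pools, as were the lowest 2 of the list, Myl2 at 0.07 and 0.47 TPM and Nppa at 0.17 and 0.09 TPM. Myl7, Myh7, Tnnt2 and Myh6 moved in the direction of Hand1 and Hand2. So did Actn2, the other heart marker with enough counts, at a log2 ratio of -0.956. Nkx2-5 and Nppa were lower in replicate 2, but on few counts: 24 and 15 for Nkx2-5, and 3.38 and 1.87 for Nppa. The part of heart tissue in the difference was not tested.

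For Ednrb, the lists of endothelium and of glia and melanoblasts bear on the cells known to make it. All 10 endothelial markers were detected at a median of 19.6 TPM, with sums of 272.6 TPM in replicate 1 and 269.5 TPM in replicate 2 and none 2-fold apart. Egfl7 had 81.67 and 77.92 TPM, Ramp2 56.43 and 57.48 TPM and Esam 22.80 and 23.17 TPM, and the lowest were Cdh5 at 13.05 and 12.91 TPM and Tek at 7.90 and 7.89 TPM. Of 11 glia and melanoblast markers, 8 were detected at a median of 9.68 TPM, with sums of 174.1 and 168.3 TPM. Pmel, a melanosome gene, at 14.58 and 6.93 TPM, and Tyr, the tyrosinase of melanin synthesis, at 0.86 and 0.40 TPM, were at least 2-fold higher in replicate 1. Over all genes compared, 0.684% were that far apart in this direction. Ednrb was higher in replicate 2. Fabp7 had 105.56 and 107.45 TPM, Kit 17.65 and 19.28 TPM, and Sox10, the crest and glia factor, 9.47 and 10.76 TPM. Foxd3, at 0.36 and 0.58 TPM, was like Tyr not detected. Sox10 and Foxd3 were higher in replicate 2, as Ednrb was, at log2 ratios of -0.21 and -0.68. The part of these cells in the Ednrb difference was not tested.

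The sources of Edn1 in the arch were represented by 3 further lists. Of 8 ectoderm markers, 7 were detected at a median of 38.7 TPM, led by Krt18 at 82.54 and 86.89 TPM, Krt8 at 79.38 and 83.65 TPM and Cldn6 at 61.84 and 63.92 TPM. The lowest were Esrp1 at 13.19 and 11.47 TPM and Krt5 at 4.62 and 0.98 TPM, the one that was 2-fold apart. Of 7 branchiomeric muscle markers, 5 were detected at a median of 4.11 TPM. Tbx1 had 6.99 and 6.96 TPM and Msc 5.06 and 4.22 TPM, while Myog, at 2.65 and 0.52 TPM, and Myod1, at 1.68 and 0.50 TPM, were higher in replicate 1. Of 7 pharyngeal endoderm markers, 6 were detected at a median of 3.28 TPM, with sums of 33.21 TPM in replicate 1 and 23.34 TPM in replicate 2. Nkx2-1, at 7.62 and 3.66 TPM, and Pax1, at 1.97 and 0.78 TPM, were 2-fold higher in replicate 1, beside Sox17 at 7.21 and 7.16 TPM, Pax9 at 8.35 and 5.27 TPM and Foxa2 at 1.5 and 1.98 TPM. Edn1 showed no such difference. Over all genes compared, 0.684% were at least 2-fold higher in replicate 1.

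Neuron markers, which bear on Ecel1, were detected 7 of 7 at a median of 71.3 TPM. Of these 7, 1 was at least 2-fold apart and was higher in replicate 2, as Ecel1 was, beside 0.556% of all genes. Tubb3 had 188.55 and 192.30 TPM, Nefm 86.90 and 98.01 TPM and Nefl 81.12 and 87.82 TPM, with Isl1 at 49.68 and 41.33 TPM. The lowest facial mesenchyme markers, Alx4 at 18.91 and 18.96 TPM and Tfap2a at 5.72 and 5.49 TPM, were alike in both pools, and none of the 10 was 2-fold apart. Over all lists, 96 of 119 genes were detected.

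**Figure D5:**
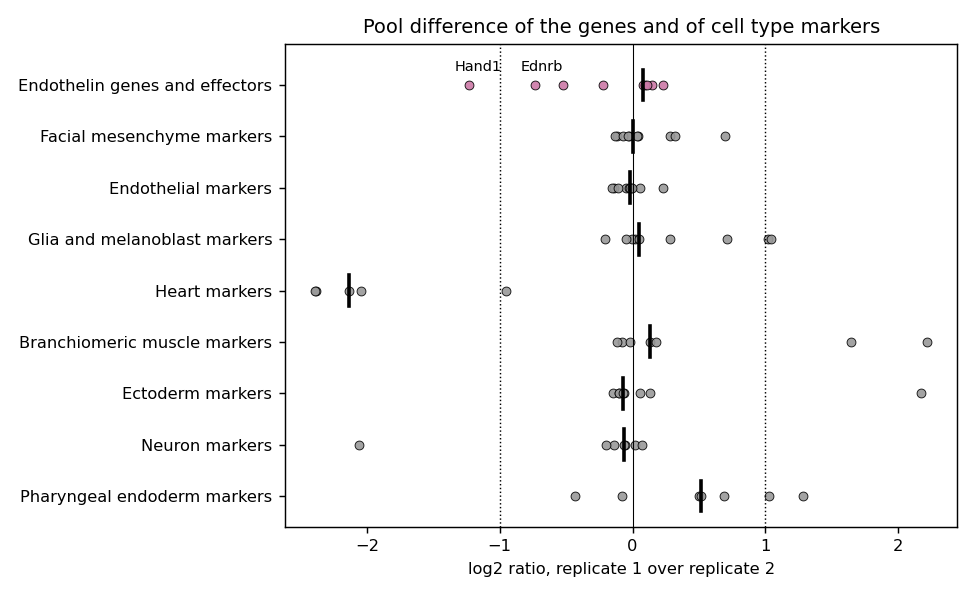
Log2 ratio of replicate 1 over replicate 2 for the 9 genes (top row) and for the markers of 8 cell types with a mean count of at least 50, one point per gene, with the median of each list as a bar and dotted lines at 2-fold. Heart markers lie to the left, at a median of -2.13, as do Hand1 and Ednrb, and endothelial markers lie close to 0.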

How the data were processed

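Expected counts per gene and per transcript were deposited by the authors for each library, as estimated and not normalized, and were rounded to whole numbers for scaling and the binomial test. TPM values were deposited by the authors with each file scaled to the same total, spike-in controls included, and log2 differences here used TPM with a pseudocount of 0.1. For transcripts the authors also deposited the percent of the TPM of the gene that each held. FPKM values were deposited by the authors too and were not used here. The authors deposited as a score without a stated level the bounds of an interval for each TPM. Per the file headers and accompanying notes, reads were placed on mm10 and quantified against GENCODE M4, and the libraries were not pooled. Aligner, quantifier and use of strand are not given in the sources used here. Per the labels, each library was made from 10 ng of mirVana-extracted RNA longer than 200 nt.

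Symbols, coordinates and transcript names came from GENCODE M21 by identifier. TMM factors (edgeR 4.0.16, R 4.3.3) took genes averaging 10 counts or more. Pool ratios used a prior count of 2 and genes averaging 50 counts or more. DESeq2 1.42.0 size factors, total and spike-in scaling, other pseudocounts, detection limits and spreads were alternatives. Statistics were computed in Python 3.11.15 with scipy 1.17.1 and tested on simulated data. The 10 genes, the context lists and the gene pairs were chosen with earlier results of these data known. Named were all 10 genes, genes of the pairs, and the 3 highest and 2 lowest of each list. List members 2-fold apart between pools and transcripts with at least 5% of their gene were named too. Gsc, Msx2, Furin, Kel, Actn2 and the overlapping genes were added after their values were seen. Some list genes are not reported here; counts and medians include them. With 1 group of 2 libraries no pattern over conditions exists, so no gene was named for a like pattern.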

Additional observations from a re-analysis of the deposited data

How the results depend on the processing

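The count of detected genes was 9 under every alternative except a limit of 2 TPM, which left 8. Without the count filter, 2 of the 10 genes were at least 2-fold apart between the pools, adding Edn2 with 0 and 2 counts at a log2 ratio of -1.04, and at a limit of 1.5-fold 2 were apart, adding Ednrb. The count was 1 under DESeq2, total, spike-in and posterior mean scaling. Pairs called apart numbered 20 to 22 of 26 under all alternatives and 17 of 23 with both genes at 1 TPM or more. An interval from the spread of the differences within pools was not among the alternatives. With the transcripts of GENCODE M21, Ece2 over Hand1 turned to -3.22, and without models under 200 bases Ece1 over Ece2 turned to -0.55 and was called apart. Single libraries gave 20 and 22 pairs apart, 9 and 9 detected genes and 99 and 100 detected list genes. The pairs that turned with 1 library were not called apart over both pools, though Hand1 over Ednra was called in each library alone, in opposite directions, and Ece2 over Hand1 and Ednrb over Edn3 in 1 library: Dlx6 over Hand2 (-0.23 to 0.53), Ece2 over Hand1 (-0.06 to 1.24), Hand1 over Ednra (-0.76 to 0.70), Ece1 over Ece2 (-0.12 to 0.18) and Ednrb over Edn3 (-0.08 to 0.68). A limit of 0.5 or 2 TPM gave 107 or 88 detected list genes of 119. The leading transcript was shared in 6 of 7 genes by posterior shares as well. No paired analysis was possible because both libraries belong to 1 group. Low counts limit Edn1, Edn2, Hand2 and the M21 transcripts of Ece2, and 2 pools limit every interval.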
